A study of Mus musculus with 6 samples.

Results

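Alpha and beta tubulins are the proteins that pair into the building blocks of microtubules, and 10 of their mouse genes are described here out of 22092 genes measured. The members are the alpha genes Tuba1a, Tuba1b, Tuba1c, Tuba4a and Tuba8 and the beta genes Tubb2a, Tubb2b, Tubb3, Tubb5 and Tubb6, found by the gene symbol in the deposited table. Where a gene had several probe sets, the one with the highest mean over the 6 arrays was used. The set was drawn up with the difference between the groups in view, because Tuba8 was low in the knockdown samples beside the other isotypes, so the differences of the members are a description: they were part of the fit over all genes, but no p-value is given for them and nothing is read from their calls. Another 10 tubulin genes and 5 lists of genes that nucleate, fold, modify, bind or walk on microtubules are described afterwards.

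The cells were MA-10, 1 established tumour line derived from mouse Leydig cells, which produce testosterone in the testis. In the siRNA MEF2 group 3 samples had received small interfering RNA against both MEF2A and MEF2D, a pair of transcription factors, for 48 h. In the siRNA control group 3 samples had received a scrambled small interfering RNA for 48 h. Each sample was read on 1 Affymetrix whole-transcript array, whose values are log2 signals. The labels number the samples of a group without saying that they came from separate cultures, so the p-values rest on a spread between samples that could be purely technical.

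Microtubules are hollow polymers of alpha-beta tubulin dimers that form the spindle, carry vesicles and organelles and shape the cell. Mammals have several alpha and several beta genes, called isotypes, whose proteins are alike except mainly at the carboxy-terminal tail, where most tubulin modifications are placed. The amount of free tubulin is sensed by the cell, which degrades tubulin mRNA during translation when free dimers are plentiful. In Leydig cells microtubules and the other cytoskeletal fibres are known for moving cholesterol-carrying organelles towards mitochondria.

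Both targeted transcripts were lower on every siRNA MEF2 array. Mef2a read 9.80, 10.12 and 10.10 on the siRNA MEF2 arrays, against 10.80, 10.80 and 10.78 on the siRNA control arrays (difference -0.78, limma adjusted p = 8.43e-05). Mef2d read 10.60, 10.84 and 10.92, against 11.22, 11.31 and 11.22 (difference -0.46, limma adjusted p = 0.00205). Over all genes limma, a linear model with a shared variance estimate, called 2581 genes lower and 1997 higher at an adjusted p under 0.05, or 3595 lower and 826 higher when each array was centred on its median. The median difference of all genes was 0.04. It depended on signal: it lay between 0.03 and 0.11 in the lower 6 deciles of signal and between -0.08 and -0.06 in the upper 4. Of 6 Leydig cell markers 5 lay above the median of the 5222 negative control probe sets on all 6 arrays, and Hsd3b1 on 4. Of 24 markers of Sertoli, germ, immune, muscle, nerve and endothelial cells 9 did so, and 4 of the 24 were called higher and 3 lower. Of the Leydig cell markers Star (-0.91) and Hsd3b1 (-0.46) were called lower and Cyp17a1 (0.42), Lhcgr (0.45) and Nr5a1 (0.20) higher. Cyp11a1 (0.04) was not called. The control medians ran from 7.16 to 7.53 on the siRNA MEF2 arrays and from 7.28 to 7.35 on the siRNA control arrays, and they are a point of comparison, not a detection limit.

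The stretches just before the start of transcription are printed for 3 members because MEF2 factors bind DNA and the members differed in the size of their difference. Tuba8 had the largest difference of the members, Tubb5 a smaller one with no overlap between groups, and Tuba1a one in which the groups touched. Each holds 250 bases, 5′ to 3′ on the gene's own strand, from RefSeq on GRCm38.p6. Tuba8 lies at chr6:121210484-121210733 on the plus strand, Tuba1a at chr15:98953502-98953751 and Tubb5 at chr17:35838302-35838551, both on the minus strand. Capitals mark matches to any of the 7 motifs named in the next paragraph.
Tuba8: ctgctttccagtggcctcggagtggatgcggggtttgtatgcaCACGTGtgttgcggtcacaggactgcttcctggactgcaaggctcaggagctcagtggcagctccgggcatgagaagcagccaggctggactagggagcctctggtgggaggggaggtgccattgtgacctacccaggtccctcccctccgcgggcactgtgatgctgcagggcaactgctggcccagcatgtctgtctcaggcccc
Tuba1a: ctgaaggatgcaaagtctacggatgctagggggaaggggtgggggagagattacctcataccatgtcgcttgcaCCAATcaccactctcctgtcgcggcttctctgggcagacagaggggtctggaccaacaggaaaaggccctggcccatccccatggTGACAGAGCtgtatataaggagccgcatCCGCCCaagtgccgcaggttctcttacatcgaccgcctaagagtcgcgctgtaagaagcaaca
Tubb5: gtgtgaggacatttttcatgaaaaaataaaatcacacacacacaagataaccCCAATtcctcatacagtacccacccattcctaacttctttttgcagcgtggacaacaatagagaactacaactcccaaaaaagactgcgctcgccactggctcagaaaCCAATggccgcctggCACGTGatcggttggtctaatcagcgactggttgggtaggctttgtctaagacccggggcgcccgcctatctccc

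The RefSeq table held a promoter for 8 of the 10 members. The MEF2 consensus, a 10-base AT-rich site searched on both strands, had no match in the 250 bases before the start of any of the 8, and 2.92% of the 32851 promoters in the table had one. That says only that these letters are not in this window. The TATA box (TATAAA) matched 1 of the 8, Tubb2a, against 12.4% of all promoters. The CCAAT box (CCAAT) matched 4 of the 8, against 33.8%, and the SP1 box (GGGCGG) 5 of the 8, against 32.7%. The share of G and C bases in the 8 ran from 49.2% (Tubb5) to 75.6% (Tuba1b). Its median over all promoters was 52.4%, and Tubb5 alone lay below that. The shares of promoters with a match were not adjusted for it. The site of the steroidogenic factor SF-1 (AAGGTCA) matched none of the 8, against 4.08%. An E box (CACGTG), the site of clock and MYC-family factors, was added after the Tuba8 sequence had been read, and stood 207 to 202 bases before the start of Tuba8 and 75 to 70 bases before that of Tubb5, against 6.02% of all promoters. The core of the antioxidant response element (TGACNNNGC), also added later, matched Tuba1a and Tuba1c and not Tuba8, against 10.2%. None of the marked matches overlapped another in the 3 printed stretches. In Tuba8 the E box was the only match.

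Tuba8 encodes a divergent alpha tubulin known for its expression in testis, heart and skeletal muscle. Its probe set (10541301) read 9.26, 8.82 and 8.94 on the siRNA MEF2 arrays, against 10.13, 10.09 and 10.26 on the siRNA control arrays. Every siRNA MEF2 value lay below every control value, and siRNA MEF2 replicate 1 was the highest of its group. The means were 9.01 ± 0.23 in siRNA MEF2 and 10.16 ± 0.09 in siRNA control (SD, n = 3 each), a difference of -1.15 (SE 0.10), or 2.22-fold lower. Of all 22092 genes it had the seventh lowest difference. Genes of its decile of signal had a median difference of -0.08, so Tuba8 lay 1.07 below them. In bulk RNA fewer cells with the transcript and less transcript per cell cannot be told apart.

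**Figure D1:**
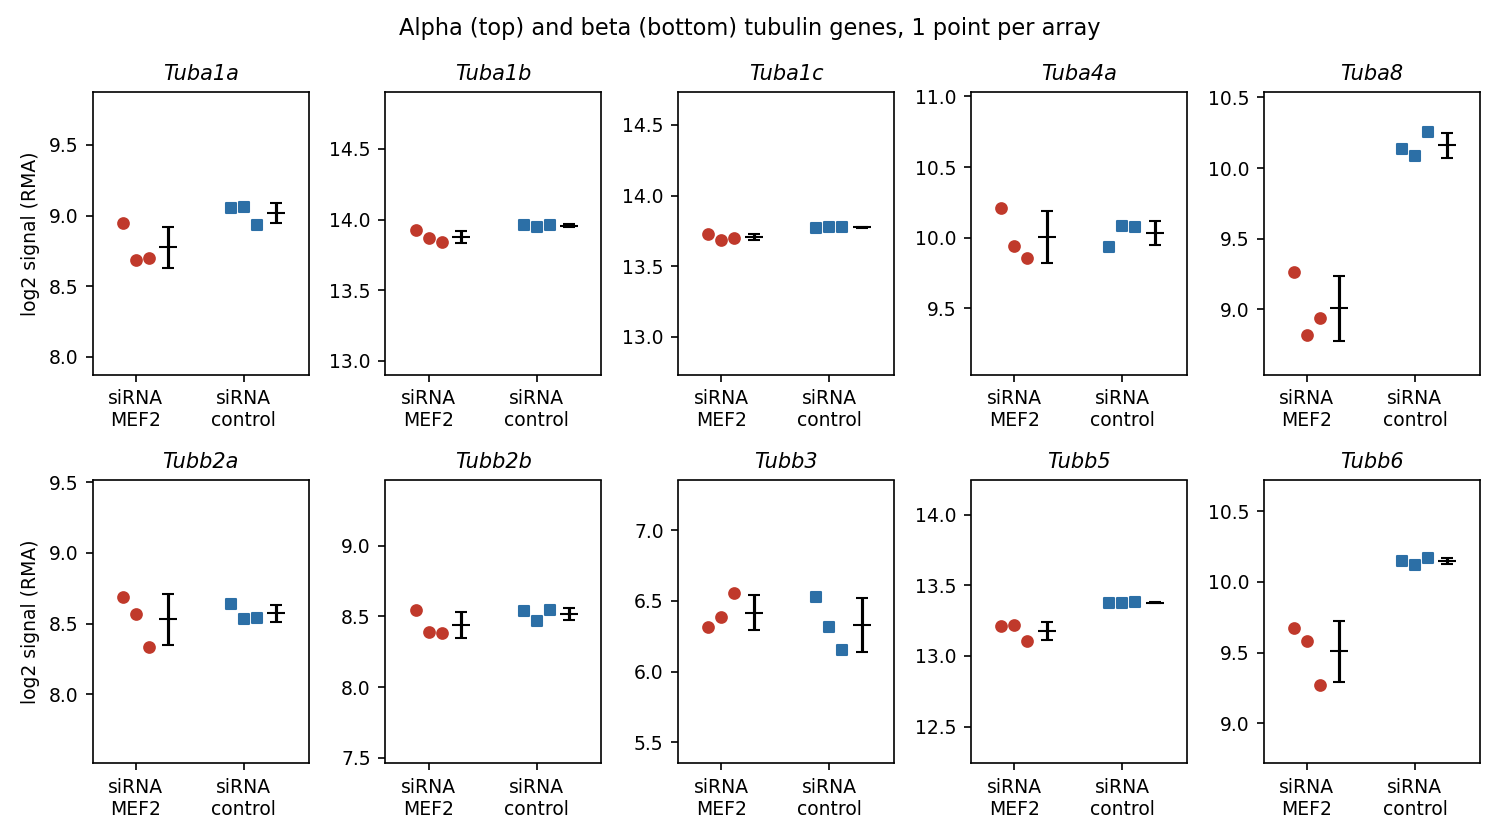
Log2 signal of the 10 tubulin genes, 1 point per array, siRNA MEF2 (red circles) left of siRNA control (blue squares), with mean ± SD (n = 3) in black. Each panel spans the same height on the log2 scale around its own centre: Tuba8 (9.01 against 10.16) and Tubb6 (9.51 against 10.15) stand apart, and Tuba1b and Tuba1c hardly move.

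The other alpha genes differed little between the groups. Tuba1b and Tuba1c encode the alpha tubulins that most dividing cells use, and both gave signals near the top of the arrays. Tuba1b (probe set 10587780) read 13.92, 13.87 and 13.84 in siRNA MEF2, against 13.96, 13.94 and 13.96 in siRNA control (difference -0.08, SE 0.05). Its siRNA MEF2 arrays lay below all control arrays by a small margin. The 2 further probe sets of Tuba1b differed by -0.09 and -0.12, the same direction. Tuba1c (10426650) read 13.73, 13.69 and 13.70, against 13.77, 13.78 and 13.78 (difference -0.07, SE 0.05), again without overlap. Both sat at the median of the brightest decile of genes (-0.07). Tuba1b moved to 0.01 after quantile normalization. Tuba1a, Tuba1b and Tuba1c are close paralogs side by side on chromosome 15, and their probes may read each other's transcripts.

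Tuba1a is the alpha tubulin best known from growing neurons. It read 8.94, 8.69 and 8.70 on the siRNA MEF2 arrays, against 9.05, 9.06 and 8.93 on the siRNA control arrays. The groups touched, because siRNA MEF2 replicate 1 lay within the control range and the other two below it (difference -0.24, SE 0.08). Tuba4a, whose protein lacks the encoded terminal tyrosine of most other alpha tubulins, read 10.21, 9.94 and 9.85, against 9.94, 10.09 and 10.08. Its groups overlapped, with siRNA MEF2 replicate 1 above all controls and replicate 3 below them (difference -0.03, SE 0.09). The sign of Tuba4a turned to 0.07 after quantile normalization, 0.05 after cyclic loess and 0.04 without siRNA MEF2 replicate 3.

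Among the beta genes Tubb6 stood apart. It encodes a beta isotype of low and widespread expression whose overproduction in cultured cells is known to destabilise microtubules. Tubb6 (probe set 10456400) read 9.68, 9.58 and 9.27 on the siRNA MEF2 arrays, against 10.15, 10.12 and 10.17 on the siRNA control arrays. The groups did not overlap, and the control arrays lay close together while siRNA MEF2 replicate 3 was well below its group. The means were 9.51 ± 0.21 in siRNA MEF2 and 10.15 ± 0.02 in siRNA control (SD, n = 3 each), a difference of -0.64 (SE 0.09), or 1.56-fold lower. Leaving out siRNA MEF2 replicate 3 gave -0.52. Tubb5, the main beta tubulin of dividing cells, read 13.21, 13.22 and 13.10, against 13.38, 13.37 and 13.38 (difference -0.20, SE 0.06). Its groups did not overlap either, and it lay 0.13 below the median of the brightest decile.

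The remaining beta genes are best known from neurons and showed overlapping groups. Tubb2a read 8.69, 8.57 and 8.34 in siRNA MEF2, against 8.64, 8.53 and 8.54 in siRNA control (difference -0.04, SE 0.08). Tubb2b, its neighbour on chromosome 13, read 8.54, 8.39 and 8.38, against 8.54, 8.47 and 8.54 (difference -0.08, SE 0.06). These 2 genes are close paralogs and may share signal. A dimmer probe set of Tubb2b differed by -0.05. Tubb3, the neuron-specific beta tubulin, read 6.31, 6.38 and 6.55, against 6.53, 6.32 and 6.15 (difference 0.09, SE 0.09), and lay below the negative control median on all 6 arrays. The signs of both Tubb2a and Tubb3 were unsettled: Tubb2a turned to 0.06 without siRNA MEF2 replicate 3, and Tubb3 to -0.01 after quantile normalization, after cyclic loess and without siRNA control replicate 3.

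**Figure D2:**
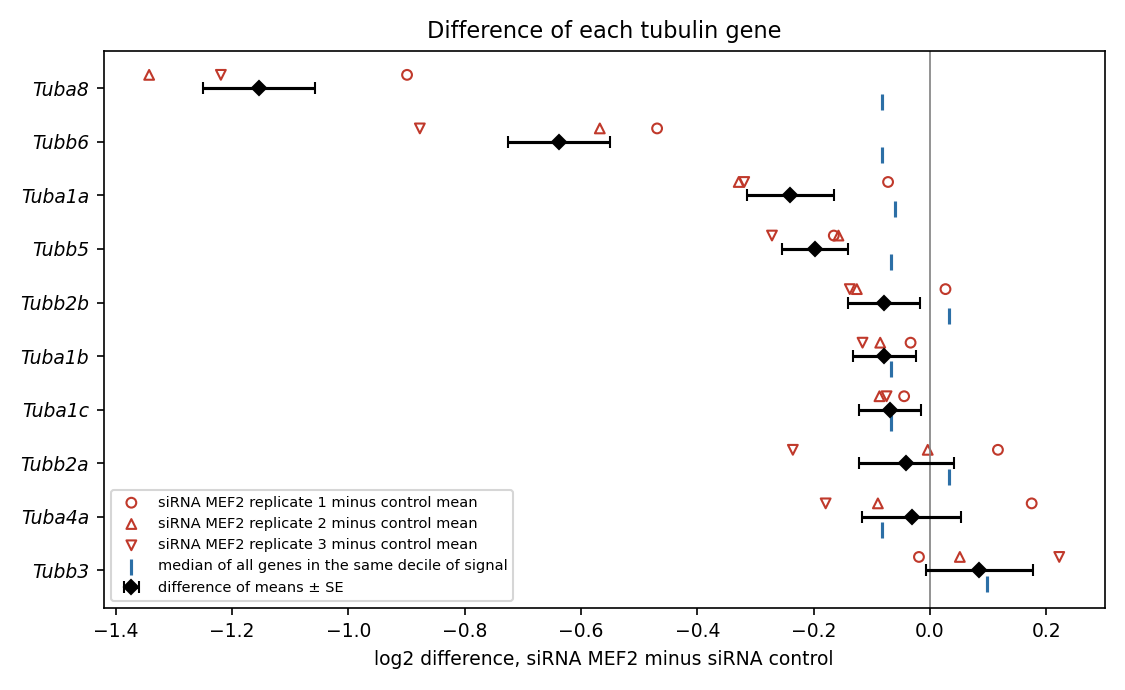
Log2 difference, siRNA MEF2 minus siRNA control, of each tubulin gene (black diamond ± SE), with each siRNA MEF2 array minus the control mean (open red marks) and the median difference of all genes in the same decile of signal (blue bars). Tuba8 (-1.15) and Tubb6 (-0.64) lie far left of their blue bars, and Tuba1b, Tuba1c and Tubb3 lie on theirs.

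Set side by side, 9 of the 10 members had a negative difference and Tubb3 a positive one. Of all 22092 genes 8738 had a negative difference. The median of the 10 was -0.08, against 0.04 for all genes, and the 9 members other than Tuba8 also had a median of -0.08. Most members lay in the upper 4 deciles of signal, where the medians of all genes were between -0.08 and -0.06. At the limma threshold over all genes 4 of the 10 were past it, all lower (Tuba8, Tubb6, Tuba1a and Tubb5). Of all genes 20.7% were past it, 11.7% lower and 9.04% higher. These 4 members lay in the upper 5 deciles of signal, where 21.9% of all genes were lower. The groups did not overlap for 5 of the 10, all lower, where 40.8% of all genes had groups that did not overlap, 18.0% with siRNA MEF2 lower and 22.8% with siRNA MEF2 higher. The members were chosen on this contrast, so nothing is read from these counts. Tuba8 had the lowest difference of the members and Tubb6 the next lowest in the fit as designed and in all 14 alternatives. The gap between them was 0.52 as designed and ran from 0.39 to 0.61 over the alternatives. Variance trend, median centring, the signal filter, the mean over probe sets and the replicate block could not change that gap. Those settings therefore add nothing to the order of the pair. Tuba8 itself lay between -1.28 and -1.06 over the alternatives.

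**Figure D3:**
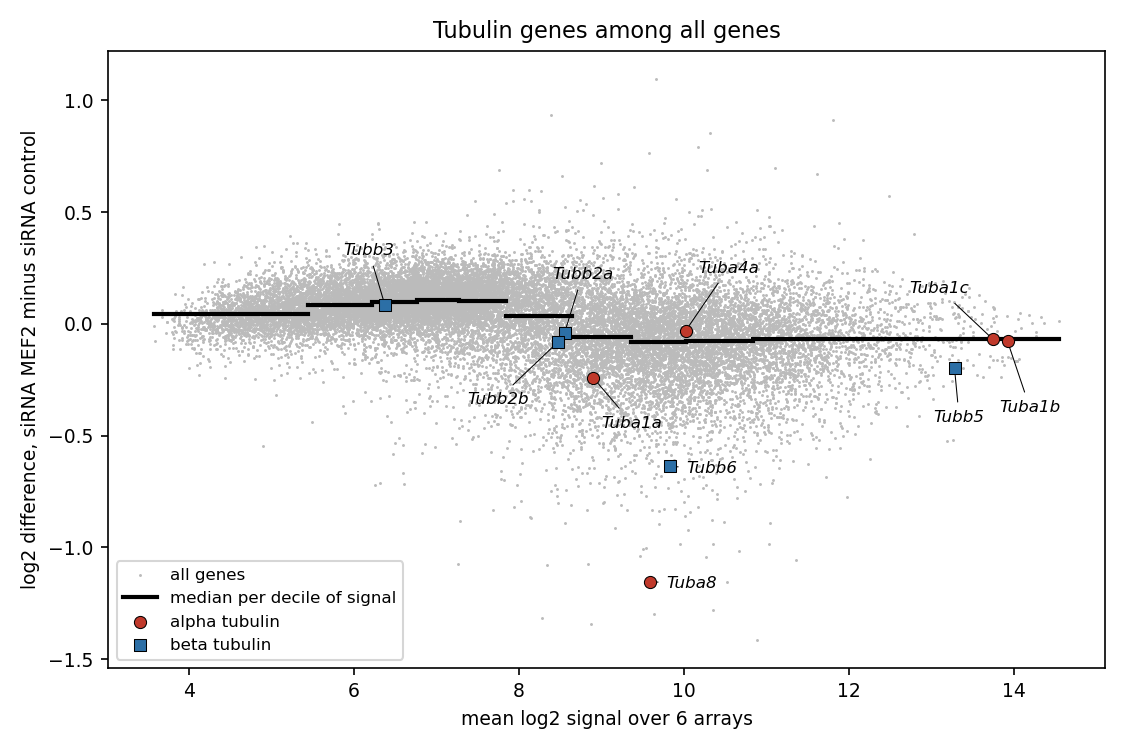
Log2 difference (siRNA MEF2 minus siRNA control) against mean log2 signal over 6 arrays for 22092 genes (grey), with alpha (red circles) and beta (blue squares) tubulins and the median of each decile of signal (black lines). Tuba8 lies near the lower edge of the cloud, Tubb6 below the bulk, and the other 8 genes within it.

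Most members shared their highest siRNA MEF2 array. Of the 10 members 8 had their highest siRNA MEF2 value on replicate 1, where 43.0% of all genes and 46.2% of genes in the upper 4 deciles of signal did. Tubb5 was highest on replicate 2 and Tubb3 on replicate 3. Relative to the control mean, Tuba8 stood at -0.90 on siRNA MEF2 replicate 1, -1.34 on replicate 2 and -1.22 on replicate 3. Tubb6 stood at -0.47, -0.57 and -0.88 on the same arrays. Mef2a and Mef2d were lowest on replicate 1, at -0.99 and -0.64. The array with the lowest Mef2a and Mef2d signals was thus the one with the highest Tuba8 and Tubb6 signals of its group. It also had the lowest negative control median of the group, 7.163, against 7.401 on replicate 2 and 7.535 on replicate 3. With 3 arrays no link among these was tested.

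The 5 genes whose 6 values, taken relative to the control mean, lay nearest to those of Tuba8 by Euclidean distance were Gm10639, Gsta1, Gsta2, Nqo1 and Arhgap19. Their distances were 0.26, 0.27, 0.31, 0.32 and 0.39 over 6 arrays. Gsta1 and Gsta2 encode glutathione S-transferases and Nqo1 a quinone reductase, all detoxifying enzymes. Gsta1, at -0.73, -1.19 and -1.24 relative to its control mean on siRNA MEF2 replicates 1, 2 and 3, was likewise highest on replicate 1, whereas Arhgap19, at -0.96, -1.05 and -0.99, hardly varied. Gm10639, Gsta1 and Gsta2 are near-identical and count as uncertain single genes. The likeness is a description of these 6 arrays and rests mostly on the difference between the groups.

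**Figure D4:**
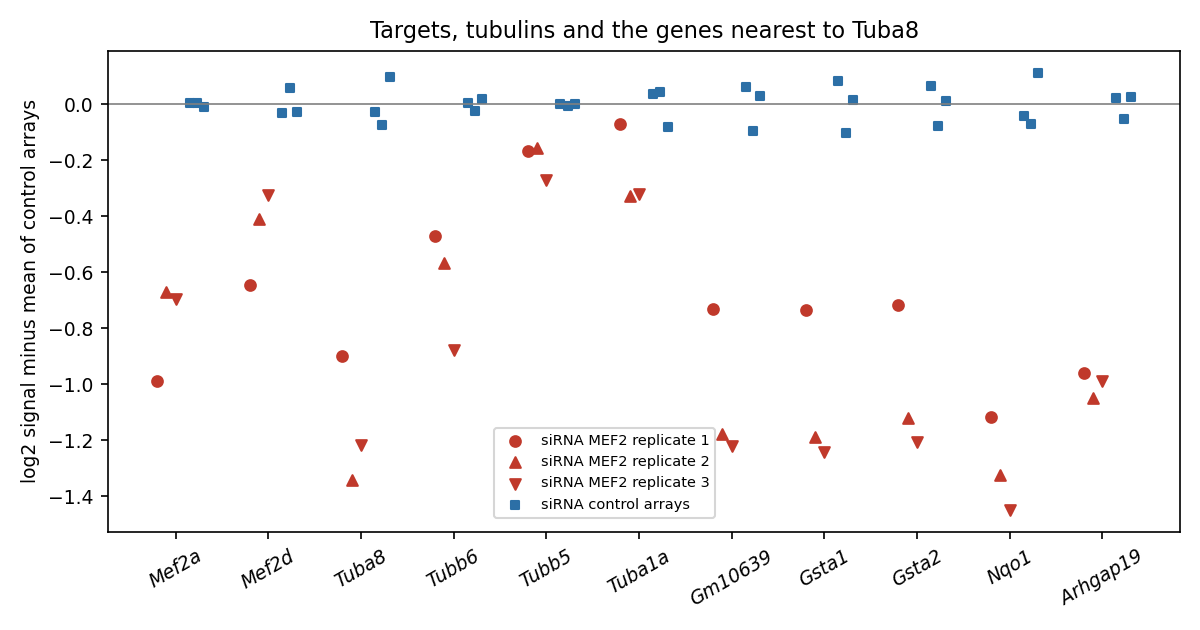
Log2 signal minus the mean of the 3 control arrays for the targets Mef2a and Mef2d, 4 tubulins and the 5 genes nearest to Tuba8; red marks are the siRNA MEF2 replicates and blue squares the control arrays. Replicate 1 is the lowest mark for Mef2a (-0.99) and Mef2d (-0.64) and the highest of the 3 for Tuba8 (-0.90) and Tubb6 (-0.47).

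The nearest measured genes on either side of Tuba8 on chromosome 6 were Pex26, with 1 unmeasured gene between, and Usp18. Pex26, which encodes a peroxisome assembly protein, read 8.14, 8.20 and 8.11 in siRNA MEF2, against 8.10, 8.10 and 8.16 in siRNA control (difference 0.03, limma adjusted p = 0.758). Usp18, which encodes an interferon-induced protease that removes ISG15, read 8.58, 8.10 and 8.08, against 8.66, 8.46 and 8.54 (difference -0.30, limma adjusted p = 0.0798). Neither passed the test, but 4 of 14 alternatives put Usp18 past the threshold as lower: without siRNA MEF2 replicate 1 (difference -0.46, adjusted p = 0.00169), the replicate block (adjusted p = 0.00802), array weights (0.0222) and median centring (0.0477). Usp18 on siRNA MEF2 replicate 1 lay within the control range, and on the other two below it.

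Of the 10 tubulin genes outside the members 3 fell (30%, against 11.7% of all genes) and none rose (against 9.04%). All 3 that fell lay in the upper 5 deciles of signal, where 21.9% of all genes fell. The count at an unadjusted p under 0.05 was 4, with Tubb4b as the fourth. The share of all genes at that p was not counted, so nothing is read from the 4. The median difference was -0.13, against 0.04 for all genes. Tubg1 and Tubg2 encode gamma tubulins, which seed new microtubules. Tubg1 read 12.23, 12.09 and 12.09 in siRNA MEF2, against 12.46, 12.57 and 12.47 in siRNA control (difference -0.36, SE 0.06, limma adjusted p = 0.00232). Tubg2 read 8.63, 8.67 and 8.45, against 8.94, 9.05 and 8.87 (difference -0.37, SE 0.07, limma adjusted p = 0.0047). Tube1, the epsilon tubulin needed for stable centrioles, read 8.91, 8.96 and 9.01, against 9.25, 9.28 and 9.33 (difference -0.33, SE 0.06, limma adjusted p = 0.00237). The groups of these genes did not overlap, and their calls held in all 14 alternatives.

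The other 7 did not pass. Tubd1, the delta tubulin of centrioles, differed by -0.03 (adjusted p = 0.79). Tubb4b, a beta isotype used in dividing and ciliated cells, read 11.06, 10.99 and 10.91 in siRNA MEF2, against 11.12, 11.20 and 11.16 in siRNA control. Its difference of -0.17 missed the threshold (limma adjusted p = 0.0586), and 6 of the 14 alternatives put it past the threshold, median centring furthest (adjusted p = 0.0161). Tuba3a and Tuba3b, alpha tubulins of the testis, differed by -0.01 and -0.17 (adjusted p = 0.942 and 0.212). Tubb4a, known from brain, differed by -0.09, Tubb1, known from platelets, by 0.03 and Tubal3 by 0.09 (adjusted p from 0.297 to 0.773). Tuba3b, Tubal3 and Tubb4a lay below the negative control median on all 6 arrays.

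The gamma-tubulin ring complex is the template on which gamma tubulin seeds a microtubule. Of 9 genes of the complex and its anchors 4 fell (44.4%) and none rose, with a median difference of -0.14. All of them lay in the upper 5 deciles of signal, where 21.9% of all genes fell and 6.80% rose. Tubgcp4, a subunit of the ring, read 10.22, 10.17 and 10.21 in siRNA MEF2, against 10.51, 10.54 and 10.59 in siRNA control (difference -0.35, limma adjusted p = 0.00134). The small subunit gene Mzt1 fell by 0.40 (adjusted p = 0.00739), and Nedd1, which anchors the ring, by 0.42 (adjusted p = 0.00841). Cdk5rap2, which activates the ring at centrosomes, fell by 0.23 (adjusted p = 0.0111), a call lost under cyclic loess scaling (adjusted p = 0.0725) and under quantile scaling (adjusted p = 0.13). Of the 5 Tubgcp genes Tubgcp4 alone passed, and Tubgcp3 differed by -0.04 (adjusted p = 0.664).

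Chaperones and cofactors fold tubulin and join it into dimers. Of 22 such genes 2 fell (9.09%, against 11.7% of all genes) and none rose (against 9.04%), with a median of -0.08. Most of the 22 lay in the upper 5 deciles of signal, where 21.9% of all genes fell and 6.80% rose. At an unadjusted p under 0.05 there were 5, and the share of all genes at that p was not counted. None of the 8 subunit genes of CCT, the chaperonin that folds actin and tubulin, passed, and their differences lay between -0.16 and 0.06. Tbcel, a cofactor-like gene whose protein can take tubulin dimers apart, read 8.74, 8.82 and 8.80 in siRNA MEF2, against 9.16, 9.28 and 9.19 in siRNA control (difference -0.42, limma adjusted p = 0.00061). Of the 6 genes of the prefoldin complex, which passes tubulin to CCT, Vbp1 alone fell (by 0.29, adjusted p = 0.012). That call was lost under cyclic loess scaling (adjusted p = 0.0548), under quantile scaling (adjusted p = 0.0945), without siRNA MEF2 replicate 2 (adjusted p = 0.0565) and without siRNA control replicate 3 (adjusted p = 0.0553). Ttc5, needed for the decay of tubulin mRNA during translation, differed by -0.23 and did not pass (adjusted p = 0.101), and passed with the replicate block (adjusted p = 0.0171).

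Enzymes that modify tubulin, on the tails or by acetylation elsewhere, gave 6 lower (25%, against 11.7% of all genes) and 1 higher (4.17%, against 9.04%) of 24, with a median of 0.01. All 6 that fell lay in the upper 5 deciles of signal, where 21.9% of all genes fell. Ttl, the ligase that restores the terminal tyrosine of alpha tubulin, read 8.90, 8.95 and 8.78 in siRNA MEF2, against 9.12, 9.32 and 9.28 in siRNA control (difference -0.36, limma adjusted p = 0.00427). Tpgs2, a subunit of a polyglutamylase, fell by 0.39 (adjusted p = 0.00665) and Ttll6, a polyglutamylase, by 0.37 (adjusted p = 0.00701). Sirt2, which can remove acetyl groups from alpha tubulin, fell by 0.31 (adjusted p = 0.0122), lost under cyclic loess scaling (adjusted p = 0.0503) and quantile scaling (adjusted p = 0.0604). Ttll10 was the gene that rose, by 0.22 (adjusted p = 0.0348). Its call was lost with median centring (adjusted p = 0.107), without siRNA MEF2 replicate 3 (0.0897) and without siRNA control replicate 1, 2 or 3 (0.063, 0.106 and 0.0895). The acetyltransferase gene Atat1 differed by 0.09 (adjusted p = 0.305) and Hdac6, the other deacetylase, by -0.01 (adjusted p = 0.96).

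Proteins that bind, stabilise, shrink or cut microtubules gave 10 lower (32.3%, against 11.7% of all genes) and 2 higher (6.45%, against 9.04%) of 31, with a median of -0.07. All 10 that fell lay in the upper 5 deciles of signal, where 21.9% of all genes fell. Map1a, a stabilising protein best known from neurons, read 8.04, 7.95 and 7.88 in siRNA MEF2, against 8.33, 8.59 and 8.64 in siRNA control (difference -0.56, limma adjusted p = 0.000778). Map2, another stabilising protein and also on the list of nerve cell markers, fell by 0.38 (adjusted p = 0.00092), while of the other nerve cell markers Syp lay above the negative control medians on all 6 arrays and Rbfox3 and Snap25 lay below them on all 6. The log2 signals of the 4 nerve cell markers summed to 32.68 to 32.82 on siRNA MEF2 arrays and to 32.57 to 33.29 on siRNA control arrays, and their part in these values was not tested. Such sums overlapped between groups for the other cell types except Sertoli and endothelial cells. Sertoli marker sums were 42.91 to 43.15 on siRNA MEF2 arrays and 42.13 to 42.40 on siRNA control arrays. Of these markers Rhox5 (0.32) and Wt1 (0.21) were called higher, and Cldn11 (0.13), Sox9 (0.04) and Amh (0.02) were not called. Endothelial marker sums were 25.09 to 25.27 on siRNA MEF2 arrays and 25.41 to 25.64 on siRNA control arrays. They rested mostly on Cdh5 (-0.42). Pecam1 (-0.07) and Kdr (0.09) lay below the negative control medians on all 6 arrays. A change in cell types was not tested. Stmn1, which binds free dimers and favours shrinkage, fell by 0.30 and the severing-enzyme relative Fignl1 by 0.31 (limma adjusted p = 0.00304 each). The neuronal relatives Stmn2 and Stmn3 were the pair that rose, by 0.19 and 0.28 (adjusted p = 0.0409 and 0.0128), although Stmn2 lay below the negative control medians on all 6 arrays. Stmn2 lost its call in 8 and Stmn3 in 5 of 13 alternatives (adjusted p up to 0.243 and 0.153), among them without siRNA control replicate 2 (adjusted p = 0.0729 and 0.0514) and without siRNA MEF2 replicate 2 (adjusted p = 0.133 and 0.059). Stmn2 also lost it without siRNA MEF2 replicate 1 (0.0896), siRNA control replicate 1 (0.103) or siRNA control replicate 3 (0.118). Mapt, which encodes tau, differed by 0.08 (adjusted p = 0.385).

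Motors that carry cargo along microtubules gave 4 lower (19.0%, against 11.7% of all genes) and 2 higher (9.52%, against 9.04%) of 21, with a median of -0.05. Most of the 21, and all 4 that fell, lay in the upper 5 deciles of signal, where 21.9% of all genes fell and 6.80% rose. The dynein light chain genes Dynlrb1 and Dynll2 both fell by 0.35 (limma adjusted p = 0.00206 and 0.00424). Dync1h1, the heavy chain that holds the motor of cytoplasmic dynein, differed by 0.0016 (adjusted p = 0.987), and none of the 6 dynactin genes passed. Kif5b, the common heavy chain of kinesin-1, fell by 0.25 (adjusted p = 0.0181), a call lost in 5 of 14 alternatives, among them without siRNA MEF2 replicate 2 (adjusted p = 0.053), siRNA control replicate 2 (0.0626) or siRNA control replicate 3 (0.0673). Of the other heavy chain genes Kif5a rose by 0.23 (limma adjusted p = 0.0312), and Kif5c differed by -0.05 (adjusted p = 0.597). The call of Kif5a was not followed over the alternatives. The light chain gene Klc4 rose by 0.23 (adjusted p = 0.0138), lost without siRNA control replicate 3 (adjusted p = 0.0659).

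**Figure D5:**
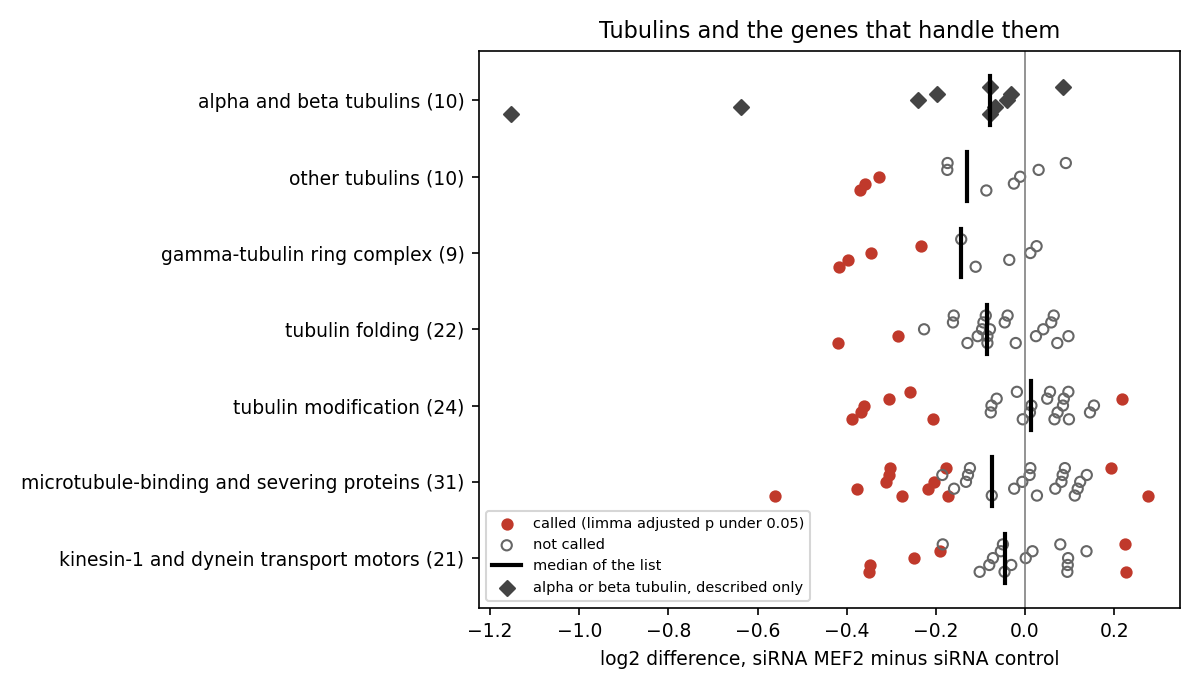
Log2 difference, siRNA MEF2 minus siRNA control, of each gene by list, with the number of genes in brackets; red points passed the limma threshold, open points did not, black bars are list medians, and the members (diamonds) are shown as a description, without their calls. Most red points lie left of 0 (29 lower, 5 higher), none as far left as Tuba8 or Tubb6.

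Over these lists together 29 of 117 genes fell (24.8%) and 5 rose (4.27%), against 11.7% and 9.04% of all genes. The median was -0.05. Genes in the upper 5 deciles of signal gave 29 lower and 2 higher of 92 list genes (31.5% and 2.17%), against 21.9% and 6.80% of all genes in those deciles. The lowest difference in the lists was that of Map1a at -0.56, above those of Tubb6 and Tuba8. The calls depended on scaling and on single arrays: cyclic loess scaling left 18 lower and 4 higher, and leaving out siRNA control replicate 3 left 20 lower and 1 higher.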

How the data were processed

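Each array's probe-set signals were deposited on the log2 scale, and the file headers name gene-level RMA as their source. RMA and Partek are the tools listed per the submitters' processing notes, without versions. The annotation release is not stated in the labels or headers. Per the values, the annotated table and the series matrix agreed to 0.0 over 35557 probe sets, and 0 columns of per-sample values were left unused. RMA puts all arrays on 1 scale, so a general shift of most transcripts is not measurable. Precision is limited by the number of arrays.

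Probe sets were named by transcript accession, then by symbol, through a RefSeq table of GRCm38.p6, which left 25522 named probe sets for 22092 genes. Where a gene had several, the probe set with the highest mean stood for it. Differences (siRNA MEF2 minus siRNA control) were fitted by limma 3.58.1 (lmFit, eBayes; R 4.3.3) with no covariates and no signal filter, as a two-sided test with Benjamini-Hochberg adjustment over 22092 genes. The fit was tested on simulated data. A fold is given where both means were at least 8. Promoters came from RefSeq, GRCm38.p6.

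The members and lists were chosen with earlier results of these data known. The genes named are the members, both targets, the other tubulins, up to 4 called genes per list with the smallest p, the 5 genes nearest to Tuba8 and its measured neighbours. Further genes (Tubgcp3, Ttc5, Ttll10, Atat1, Hdac6, Stmn2, Stmn3, Mapt, Dync1h1, Kif5a, Kif5c, Rbfox3, Snap25, Syp and Hsd3b1) were chosen after their values were seen. The other Leydig cell markers and the Sertoli and endothelial cell markers were also named after their values were seen. Alternatives were variance trend with robust estimation, array weights, 3 scalings, a signal filter, the mean over probe sets, a replicate block and leaving out each array.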

Additional observations from a re-analysis of the deposited data

How the results depend on the processing

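Tuba8 differed by -1.28 to -1.06 and Tubb6 by -0.72 to -0.52 over 14 alternatives. The median of the other 9 members (-0.08) was -0.019 after quantile normalization and ran from -0.13 (without siRNA MEF2 replicate 1) to -0.059 when 1 array was left out. With 4578 genes called (1997 higher, 2581 lower), leaving out 1 array gave 2482 to 4282 (814 to 2073 higher, 1601 to 2613 lower), the lowest being without siRNA MEF2 replicate 2; omitting siRNA control replicate 2 gave 2521 and omitting siRNA control replicate 3 gave 2654. Higher calls numbered 826 after median centring (3595 lower), 1172 after cyclic loess (1925 lower) and 961 over genes above the median signal (2778 lower), and quantile normalization gave 1376 higher and 1702 lower. Of the microtubule lists 34 genes were called (29 lower, 5 higher), 22 after cyclic loess (18 lower), and 18 were lower after quantile normalization. Higher list calls were 2 after median centring and 2 over genes above the median signal. Leaving out 1 array gave 21 to 34 (20 to 31 lower, 1 to 4 higher). The causes of these changes were not tested. With the replicate number as a block 5318 genes were called, 34 of them in the lists. Differences, such as the -1.15 of Tuba8, cannot change under this block, because each number occurs in both groups. Only standard errors and p-values can. Same-numbered samples deviated together at correlations of 0.11, 0.08 and 0.10 over genes, not all over 0.1. Differently numbered ones ran from -0.0868 to -0.0055, so each correlated best with its own number. Deviations from a group mean cancel out within the group, so negative values accompany the positive ones and are not separate support. With the positive values a link between same-numbered samples is possible. The labels name none, and the fit as designed used none. Tubb3 could not be fitted in the signal filter. Signal near the negative controls limits Tubb3.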
